A study of Mus musculus with 2 samples.

Results

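Blood vessels of the pancreatic islet are wrapped by mural cells, and the tissue around them holds stellate cells and fibroblasts. The genes described here are 10 markers of these cells, followed in islets that overexpress 2 microRNAs and in control islets. Members were the probe sets whose only gene symbol in the platform's annotation was Acta2, Tagln, Des, Pdgfrb, Rgs5, Cspg4, Notch3, Pdgfra, Vim or Thy1. All 10 genes were found, with 23 probe sets among the 34945 that carried a single gene symbol, which together measured 18193 genes. A probe set is a group of short DNA probes on the array that read 1 transcript or a few related ones.

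The control group was islets of male C57Bl6 mice aged 6 weeks (genotype label Bl6_control). The transgenic group was islets of male mice of the same age with the label miR-141/200c_overexpression, titled Ripmir. Neither the promoter that drives the transgene nor the number of mice or transgenic lines behind a sample is given in the sources used here. The islets were not treated after isolation, and total RNA was hybridised as 1 array for each of the 2 groups. With n = 1 a group no value has a replicate error, no test could be run, and "higher" or "lower" describes these arrays only. All values are the authors' log2 RMA values, on which a difference of 1 is 2-fold, and every difference is transgenic minus control. Levels of different probe sets cannot be set against each other, since each binds its target with its own strength.

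Pericytes lie along capillaries and share with smooth muscle cells of larger vessels a contractile machinery that sets vessel width. They are recruited by PDGF-B from the endothelium acting on the receptor PDGFR-beta, and Notch3 signalling maintains them. Stellate cells store vitamin A in the healthy pancreas and, on activation, gain smooth muscle actin and lay down collagen, while fibroblasts are commonly recognised by PDGFR-alpha. The transgene's products belong to the miR-200 family, which represses messenger RNAs with sites matching the seed, bases 2 to 8 of the mature strand. The RefSeq sequences of the 3p strands (GRCm38.p6, chromosome 6, minus strand) are printed 5′ to 3′ with the seed in capitals, because the labels name these microRNAs as overexpressed.
mmu-miR-141-3p: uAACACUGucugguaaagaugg
mmu-miR-200c-3p: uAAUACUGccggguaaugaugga
The 7 bases of these seeds differ at 1 base. The labels do not say which strand was raised, and no probe set used here reads either microRNA, so the overexpression was not checked.

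Per the labels the tissue is islets, and the source name is beta cells. All 15 measured islet endocrine markers reached the median of all array values, 5.76, which serves here as the floor for low signals. Their median difference was -0.01 (0.00093 without _s, _x and _a probe sets), with Ucn3, a peptide of mature beta cells, furthest lower at -0.81 and Pcsk1, a prohormone convertase, furthest higher at 0.48. Gcg, the glucagon gene of alpha cells, read 14.13 on the transgenic and 14.19 on the control array, so markers of endocrine cells other than beta cells were present in both samples. Array controls also differed: the 24 poly-A spike probe sets read higher on the transgenic array without exception (median 1.51), as did all 18 hybridisation controls (0.40), and the 3 probe sets of 18S rRNA were lower by a median difference of -0.83. Their part in the differences below was not tested.

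Of the 23 member probe sets, 19 were higher and 4 lower on the transgenic array. Signals reached the floor on both arrays for 15, on 1 array for 1 and on neither for 7. All 10 probe sets of the 4 pericyte genes were higher, with a median of 0.92. Of these, 4 read Rgs5, and probe sets of 1 gene are not independent. Contractile probe sets were higher in 4 of 6 cases, with a median of 0.08, and fibroblast-type probe sets in 5 of 7, with a median of 0.24. The 6 contractile probe sets include Acta2 probe sets far below the floor. Each gene is summarised below by the probe set with the highest mean level. On that basis 9 of 10 genes were higher and Thy1 alone was lower, with a median difference of 0.49 over the 10 genes, while all 11835 genes with a mean at the floor had a median of 0.03 and 53.9% on the higher side.

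**Figure D1:**
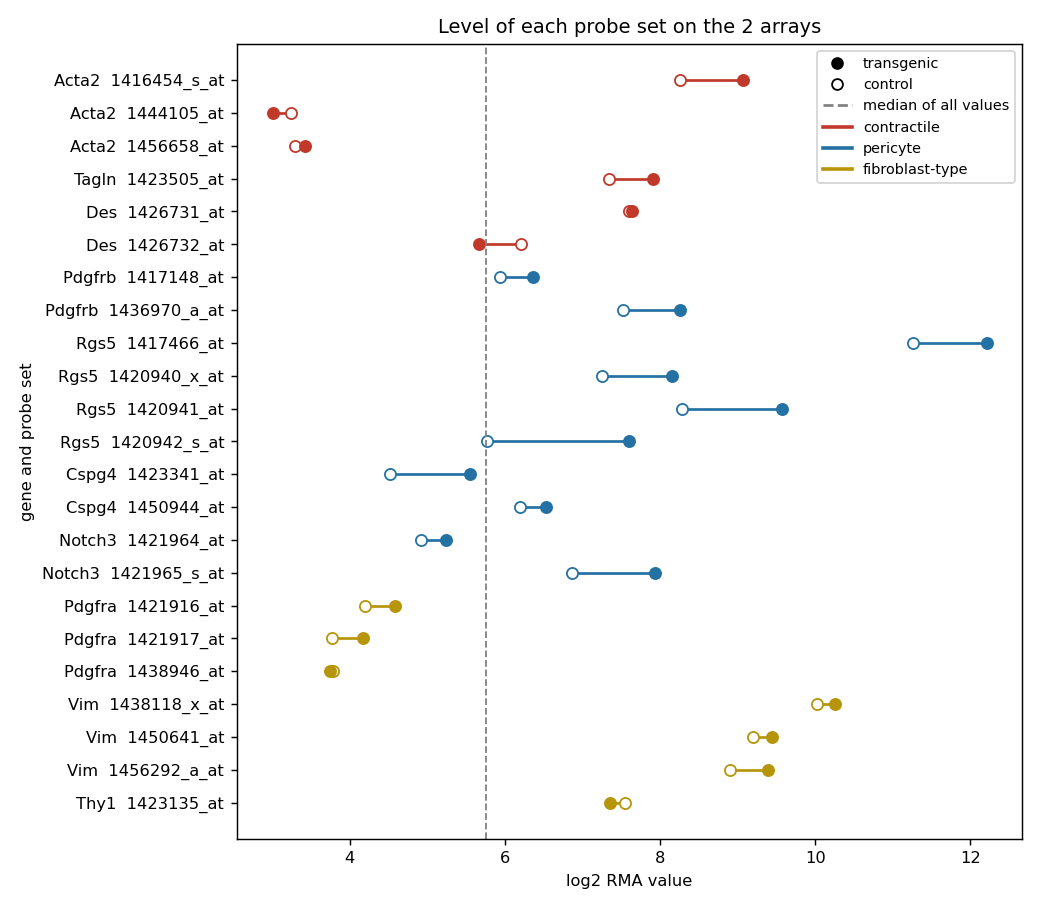
Log2 RMA value (x axis) of each of the 23 member probe sets (y axis) on the transgenic array (filled) and the control array (open), coloured by role, with the median of all values as a dashed line. The 10 pericyte probe sets all have the filled point to the right, and the 3 Pdgfra probe sets lie left of the dashed line on both arrays.

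The size of the differences was read against all probe sets whose mean level reached the floor. At least 2-fold higher were 3 of the 16 such member probe sets, 2 of Rgs5 and 1 of Notch3, against 1.90% of 19798 such probe sets. At least 1.5-fold higher were 7 of 16, against 6.42%. None was 1.5-fold lower, where the background is 3.75%, or 2-fold lower, where it is 0.677%. Counted by gene, 1 of the 9 members whose mean reached the floor was at least 2-fold higher (background 2.26%) and 4 were at least 1.5-fold higher (7.17%), with none at least 1.5-fold lower (3%) or 2-fold lower (0.490%). The genes were chosen with earlier results of these arrays known, so these shares describe the members and test nothing. In RNA of whole islets, a change in the number of cells of a type and a change in RNA per cell cannot be told apart.

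**Figure D2:**
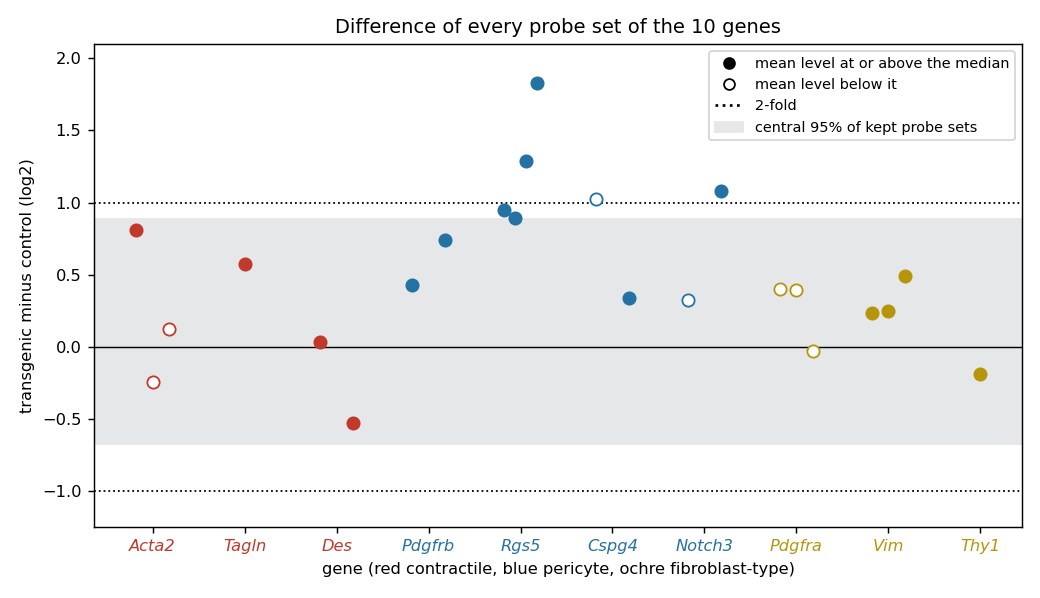
Transgenic minus control difference in log2 units (y axis) of every probe set of the 10 genes (x axis), filled where the mean level reaches the median of all values and open below it. The grey band is the central 95% of kept probe sets, from -0.68 to 0.89, and dotted lines mark 2-fold. All 4 Rgs5 points, the filled Notch3 point and the open Cspg4 point at 1.02 lie above the band.

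Rgs5 encodes a regulator of G protein signalling that speeds the switching off of G alpha subunits and is a standard pericyte marker. On the transgenic array each of its 4 probe sets read higher, among them the member probe set with the largest difference, while by brightest probe set Notch3 differed more, at 1.08 against 0.95. The brightest, 1417466_at, read 12.21 on the transgenic and 11.26 on the control array, 1.93-fold higher. At this level large differences were rare: of the probe sets within 0.5 log2 units of its mean, 0.640% were higher by as much or more. Probe set 1420941_at read 9.57 and 8.28, or 2.44-fold higher. Probe set 1420942_s_at read 7.60 and 5.77, a difference of 1.83. Its control value lay just above the floor, where the background of the array can limit a ratio. Probe set 1420940_x_at read 8.15 and 7.25, a difference of 0.89. The sign is the same for 4 of 4 probe sets while the size spans 0.94 log2 units between them. The largest difference comes from an _s probe set, but the brightest probe set has no suffix, so the gene's value does not rest on suffixed ones. Probe sets marked _s or _x can bind more than 1 transcript, and _a probe sets cover several transcripts of 1 gene.

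Notch3 encodes the Notch receptor of mural cells. Its brighter probe set, 1421965_s_at, read 7.94 on the transgenic and 6.86 on the control array, 2.12-fold higher, and 2.04% of probe sets at its level were higher by as much or more. The other, 1421964_at, was below the floor on both arrays at 5.24 and 4.92, a difference of 0.33. Both were higher, but the 2-fold size rests on the probe set that can bind several transcripts.

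Pdgfrb encodes the receptor through which pericytes are recruited to vessels. Probe set 1436970_a_at read 8.25 on the transgenic and 7.52 on the control array, 1.67-fold higher. The second probe set, 1417148_at, read 6.36 and 5.93, a difference of 0.43. Both lay above the floor on both arrays and shared the sign.

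Cspg4 encodes NG2, a surface proteoglycan of pericytes and of oligodendrocyte precursors. Its probe set at the floor, 1450944_at, read 6.53 and 6.19, a difference of 0.34 that 18.1% of probe sets at that level reached or passed. The other, 1423341_at, read 5.54 and 4.52, a difference of 1.02 with both values below the floor. The direction is shared, and the larger value comes from the probe set below the floor on both arrays.

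Over these 4 pericyte genes the median difference was 0.84. Their probe sets, 4 of them of Rgs5 and some below the floor, were higher in 10 of 10 cases, from 0.33 to 1.83. Without _s, _x and _a probe sets the median was 0.43. Endothelial markers, which read the vessels that pericytes cover, had a median of 0.08 over the 10 that reached the floor. Of these, 8 were higher, 1 of them at least 1.5-fold (7.17% of all genes at the floor). Pecam1, an adhesion molecule of endothelial junctions, was furthest higher at 0.88, and Flt1, a VEGF receptor, furthest lower at -0.18. The difference between these medians was not tested, since there is 1 array per group.

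The contractile members did not share one pattern. Acta2, the smooth muscle actin that marks contractile mural cells and activated stellate cells, read 9.07 on the transgenic and 8.26 on the control array with 1416454_s_at, 1.76-fold higher. Of the probe sets at its level 2.84% were higher by as much or more. Its other probe sets, 1444105_at and 1456658_at, read 3.002 against 3.25 and 3.41 against 3.29, far below the floor, so the gene's value rests on 1 probe set, of a class that can bind several transcripts. Actins are highly alike in their coding sequence, and the annotation gives this probe set to Acta2 alone.

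Tagln encodes transgelin (SM22), an actin-binding protein of smooth muscle. Its only probe set read 7.91 on the transgenic and 7.34 on the control array, a difference of 0.58 or 1.49-fold, just under the 1.5-fold line. Des encodes desmin, the intermediate filament of muscle cells that pericytes and quiescent stellate cells also carry. Its brighter probe set, 1426731_at, read 7.63 and 7.60, a difference of 0.04 that turned to -0.0089 under a second quantile normalization. The dimmer one, 1426732_at, read 5.67 on the transgenic and 6.20 on the control array, a difference of -0.53, with the transgenic value below the floor. Acta2 and Tagln were thus higher and Des was level or lower, depending on the probe set. By brightest probe set the median of the 3 contractile members was 0.58. With probe sets averaged it was 0.16, where Acta2 was no longer kept.

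The promoters of Acta2 and Des are shown because these contractile genes differed in their difference between the arrays. Serum response factor drives smooth muscle genes through the CArG box, and Notch receptors act through RBPJ. The windows run from 250 bases before to 50 bases after the RefSeq start (GRCm38.p6), Acta2 at chr19:34255324-34255623 on the minus strand and Des at chr1:75360042-75360341 on the plus strand. They are printed 5′ to 3′ on the gene's strand, with capitals for the RBPJ core TGGGAA and for a CArG box with at most 1 mismatch.
Acta2: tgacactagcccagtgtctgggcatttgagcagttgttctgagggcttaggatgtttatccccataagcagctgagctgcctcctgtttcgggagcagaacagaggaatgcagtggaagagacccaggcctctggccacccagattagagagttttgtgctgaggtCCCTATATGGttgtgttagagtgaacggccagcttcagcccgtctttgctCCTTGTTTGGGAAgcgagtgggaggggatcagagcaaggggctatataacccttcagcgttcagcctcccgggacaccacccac
Des: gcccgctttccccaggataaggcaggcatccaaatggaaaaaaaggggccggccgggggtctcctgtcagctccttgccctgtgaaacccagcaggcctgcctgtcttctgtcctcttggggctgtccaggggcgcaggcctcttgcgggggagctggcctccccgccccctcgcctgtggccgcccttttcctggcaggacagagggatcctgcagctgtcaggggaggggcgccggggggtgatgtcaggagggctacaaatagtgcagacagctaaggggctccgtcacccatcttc
Motifs were searched on both strands in the 7 of 10 members matched in the RefSeq promoter table, namely Acta2, Des, Rgs5, Cspg4, Notch3, Pdgfra and Vim. An exact CArG box was found in none of them, and 1.63% of all 32851 promoters of this length hold one. With 1 mismatch allowed, a search added after the exact one found nothing, Acta2 had 2 matches, beginning 84 and 34 bases before the start. The match at 34 bases overlaps the RBPJ core, which begins 27 bases before the start. Cspg4 had 2 overlapping matches and the other 5 genes none, while 21.1% of all promoters have at least 1. The RBPJ core was in Acta2 alone of the 7 and is in 25.6% of all promoters. The SMAD palindrome GTCTAGAC and the ZEB E-box CACCTG were in none of the 7, and occur in 0.213% and 20.2% of all promoters. Such matches are letters in a window and were not measured as binding sites.

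No fibroblast-type probe set was 1.5-fold apart. Pdgfra, the receptor used to recognise fibroblasts and mesenchymal progenitors, was below the floor with all 3 probe sets on both arrays. Its values were 4.59 against 4.19, 4.17 against 3.77 and 3.75 against 3.78, transgenic first, so no level of this gene was measured well on either array. Vim encodes vimentin, the intermediate filament of mesenchymal cells, endothelium and leukocytes. Its probe sets read 10.25 against 10.02 with 1438118_x_at, 9.44 against 9.20 with 1450641_at and 9.39 against 8.90 with 1456292_a_at. The differences of 0.23, 0.24 and 0.49 agree in sign, and 18.7% of probe sets at the level of the brightest were higher by as much or more.

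Thy1, a surface glycoprotein of fibroblasts, T cells and neurons, had 1 probe set. It read 7.36 on the transgenic and 7.55 on the control array, a difference of -0.19. T cell markers had a median of -0.14 over the 5 that reached the floor, from -0.48 for Cd3d to 0.63 for Cd2, 2 of them higher. That median turned to 0.042 when 1 array at the floor was enough and to 0.064 with no floor. Over Vim and Thy1, the fibroblast-type members at the floor, the median was 0.02, which turned to -0.0074 under a second quantile normalization and to -0.0052 after centring on all kept genes, and it was 0.23 with Pdgfra included.

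**Figure D3:**
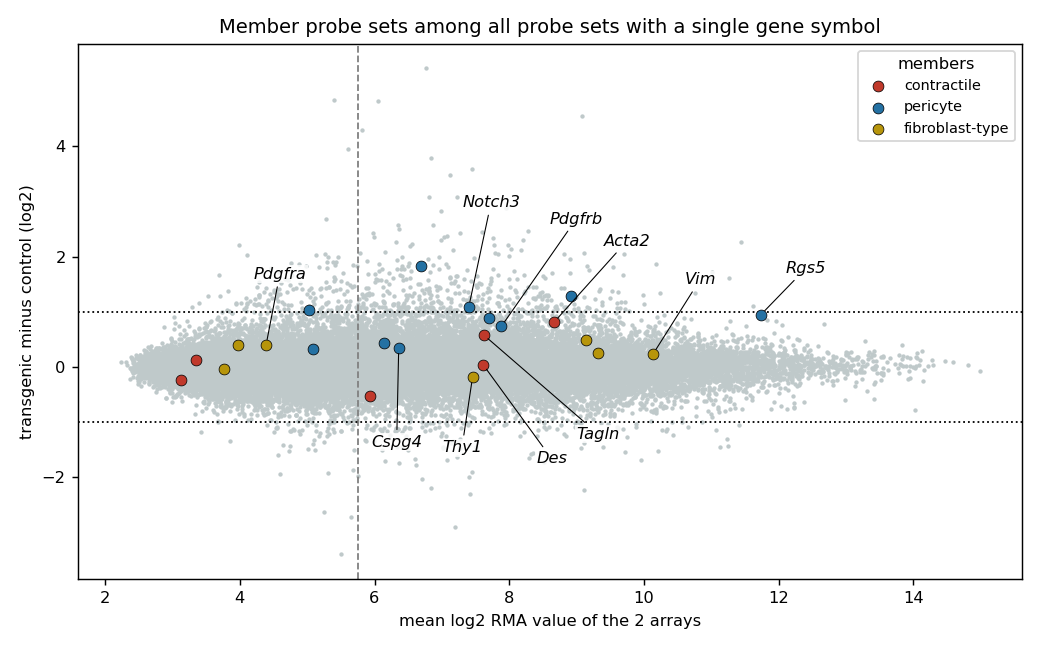
Transgenic minus control difference (y axis, log2) against the mean log2 RMA value of the 2 arrays (x axis) for every probe set with a single gene symbol (grey) and the 23 member probe sets (coloured by role), with each gene's brightest probe set named. The dashed line is the median of all values and dotted lines mark 2-fold. Rgs5, at a mean of 11.74, lies at the upper edge of the points of its level, and Des, Thy1 and Vim lie within the main cloud.

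The same roles were then followed in genes that are not members. Of 23 genes of the contractile apparatus 10 reached the floor, of which 8 were higher and 2 lower, with a median of 0.46. At least 1.5-fold higher were 5 of the 10 (7.17% of all genes at the floor) and at least 2-fold higher was 1 (2.26%). Myh11, the smooth muscle myosin heavy chain and the most specific marker of mature smooth muscle, read 7.40 on the transgenic and 5.89 on the control array, 2.84-fold higher, with its other probe set at 0.35. That control value lay just above the floor, where the background of the array can limit a ratio. The regulatory light chain gene Myl9 followed at 0.70. Csrp1, a LIM protein of smooth muscle, was furthest lower at -0.43, then Ppp1r12b, a myosin phosphatase subunit, at -0.28. Cnn1 (calponin) and Actg2 (enteric smooth muscle actin) lay below the floor on both arrays, with differences of 0.47 and 0.02. The other 11 genes below the floor are shown by open points in the plot of these lists, and over all 23 the median was 0.25.

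Other pericyte markers differed less than the pericyte members did on these arrays, a contrast that was not tested. Of 20 measured, 12 reached the floor, with 7 higher and 5 lower. None of the 12 was 1.5-fold apart, where 7.17% of all genes at the floor were higher by that much and 3% lower. The median of 0.12 turned to -0.037 with probe sets averaged and to -0.0081 with a stricter floor, the 75th percentile of the arrays. Gucy1a1 and Gucy1b1, the subunits of the nitric oxide receptor guanylate cyclase, were furthest higher at 0.46 and 0.43, although the other probe set of Gucy1b1 stood at -0.50. Rgs4, a relative of Rgs5, was furthest lower: it read 10.12 on the transgenic and 10.39 on the control array, a difference of -0.27, with further probe sets at -0.60 and -0.42. Vtn, which encodes vitronectin, followed at -0.24. The subunits of the potassium channel of pericytes differed in sign. Abcc9 read 7.40 and 7.06, a difference of 0.35, while Kcnj8 was below the floor at 4.98 and 5.67, a difference of -0.69.

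**Figure D4:**
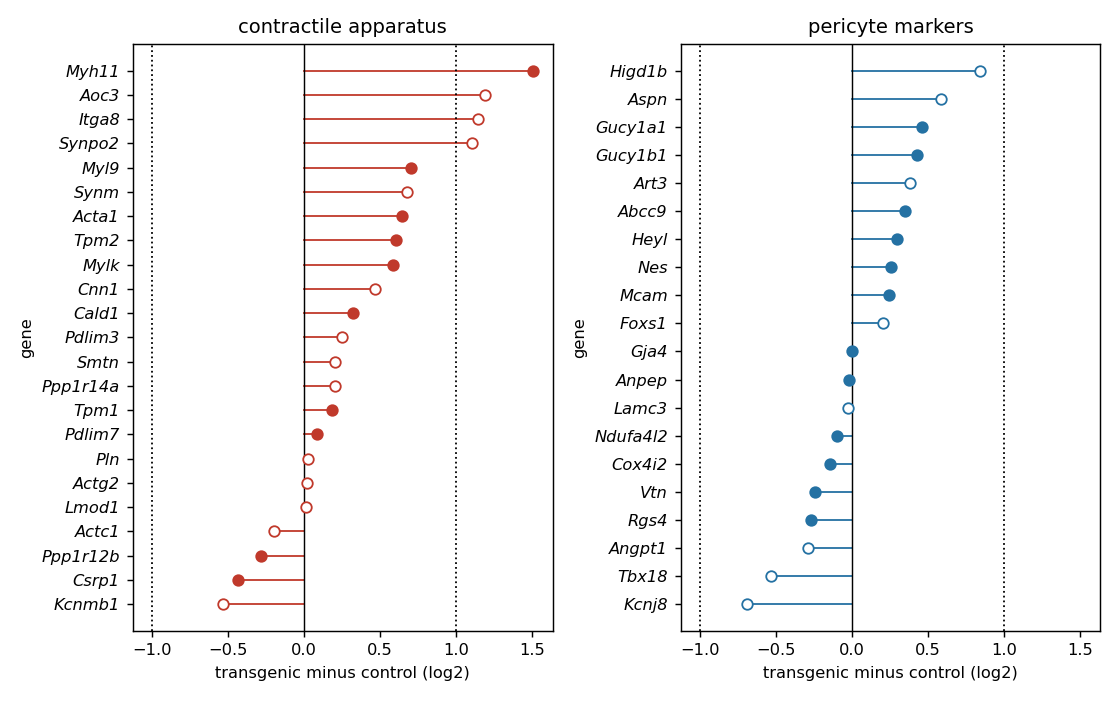
Transgenic minus control difference (x axis, log2) of the 23 measured genes of the contractile apparatus (left, y axis) and the 20 measured pericyte markers other than members (right, y axis), filled where the mean level reaches the median of all values. Dotted lines mark 2-fold. Myh11 is the only filled point past 2-fold, and no filled pericyte point passes 1.5-fold.

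Stellate and fibroblast markers other than members had a median of 0.25 over the 13 of 26 measured that reached the floor, with 8 higher and 5 lower. The matrix genes Col1a2 (a collagen I chain) and Postn (periostin) were furthest higher at 1.27 and 1.05, and 1 of the 2 other probe sets of Col1a2 had the opposite sign at -0.04. Fbln1 (fibulin-1) was furthest lower at -0.42, followed by Serpinf1 at -0.26, each with another probe set of opposite sign. Of the 13, 4 were at least 1.5-fold higher (7.17% of all genes at the floor) and none was 1.5-fold lower (3%).

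Most genes of the signals that act on mural cells differed by less than 1.5-fold. In the PDGF list 6 of 11 genes at the floor were higher, with a median of 0.08 that turned to -0.067 with probe sets averaged and to -0.031 with the stricter floor. Pdgfb, the endothelial ligand of Pdgfrb, read 6.71 on the transgenic and 6.52 on the control array, a difference of 0.19. Pdgfa, the ligand of Pdgfra, read 9.43 and 9.57, a difference of -0.13. Plat, tissue plasminogen activator, which activates PDGF-C, was furthest higher at 0.51, and Pik3r1, a phosphoinositide 3-kinase subunit, furthest lower at -0.74, although 1 of its 3 other probe sets stood at 0.19.

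In the Notch list 9 of 13 genes at the floor were higher, with a median of 0.16. None was 1.5-fold apart, where 7.17% of all genes at the floor were higher by that much and 3% lower. Jag1, a ligand of Notch3 on endothelial and mural cells, read 7.45 and 7.21, a difference of 0.24, while 1 of the 2 further probe sets pointed the other way. Notch1, the receptor of endothelial and many other cells, was furthest higher at 0.54, and the ligand gene Dll1 furthest lower at -0.30. Notch3 itself, at 1.08 by its brighter _s probe set, lay beyond every gene of that list. Its other probe set, below the floor, stood at 0.33, which is less than Notch1.

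In the TGF-beta list, which covers a main inducer of Acta2 in stellate cells, 9 of 13 genes at the floor were higher, with a median of 0.19. Tgfbr2, the type II receptor, was furthest higher at 0.57, with 1 of 2 other probe sets of opposite sign, and Smad2 furthest lower at -0.30. The ligand gene Tgfb1 was below the floor at 5.50 and 5.18. Srf, which encodes serum response factor, read 9.13 and 9.09, a difference of 0.05. The list of Srf with its cofactors and targets had a median of 0.01 over 16 genes. This list leaves out Acta2, Tagln, Des and the contractile apparatus genes described above. Its median turned to -0.014 after centring, -0.0068 under a second quantile normalization and -0.025 with the stricter floor. Differences in the list ran from -0.24 for Tln1 (talin) to 0.57 for Filip1l. None of the 16 was 1.5-fold apart, where 7.17% of all genes at the floor were higher by that much and 3% lower.

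Markers of other cells in the sample also differed between the arrays. All 13 macrophage markers at the floor were higher, with a median of 0.82 and Mpeg1 furthest at 1.25. Of the 13, 10 were at least 1.5-fold higher (7.17% of all genes at the floor) and 3 at least 2-fold (2.26%). The lowest was Lyz2 at 0.26. The summed linear signal of the 16 measured, which the brightest probe sets dominate, was 8337 on the transgenic and 5615 on the control array, and Mrc1, Itgam and Cx3cr1 lay below the floor. Macrophages are known to express Vim, and their part in its difference was not tested. Schwann cell markers had a median of 0.38 over the 4 at the floor, with Erbb3, a neuregulin receptor, at 0.87 and Mbp, a myelin protein, at -0.06, where the other probe set of Erbb3 and all 7 others of Mbp had the opposite sign. Whether these cells contribute to the differences in Acta2, Tagln, Pdgfrb, Rgs5 and Notch3 was not tested.

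**Figure D5:**
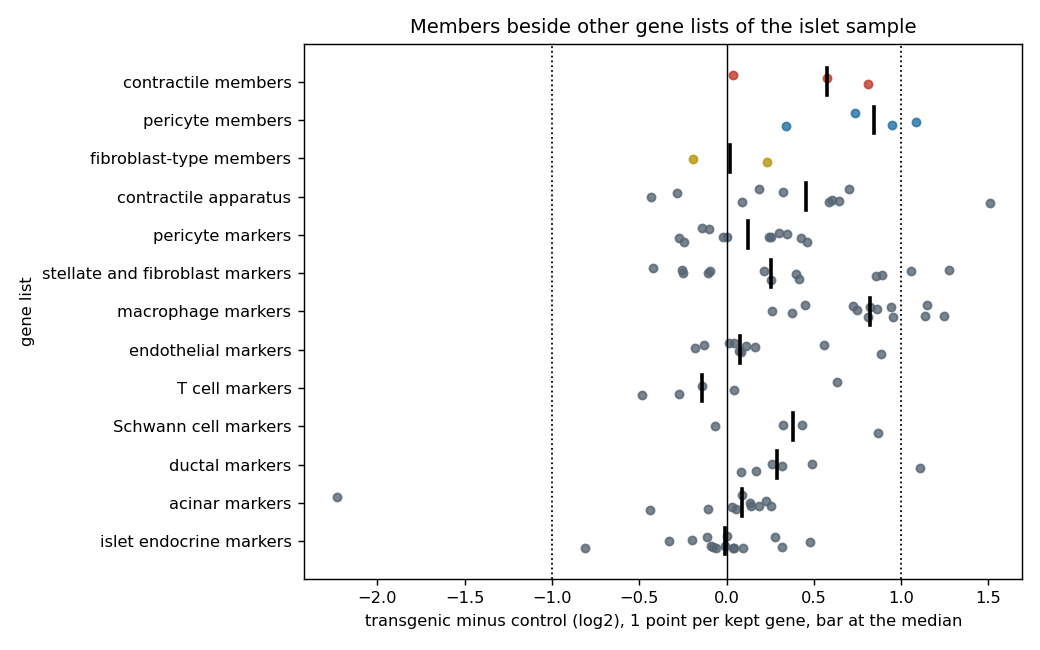
Transgenic minus control difference (x axis, log2) of each gene whose mean level reaches the median of all values, by gene list (y axis), with a bar at the median and the vertical scatter within a list only for legibility. Medians are 0.84 for pericyte members, 0.82 for macrophage markers, 0.12 for the other pericyte markers and 0.08 for endothelial markers.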

How the data were processed

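Total RNA of islets from 2 groups of mice, 1 array each, was labelled with biotin, per the labels. The deposited table holds log2 expression values per probe set, which the authors made with RMA in Affymetrix Expression Console, per the submitters' processing notes; no version is stated in those notes. RMA subtracts background and forces both arrays onto one distribution, and it compresses differences at low and high signal. The sorted columns differed by at most 0.10. Array depth has no counts, and the number of arrays limits the precision.

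Gene names came from the platform's annotation and Entrez identifiers matched to the GRCm38.p6 gene table (34741 of 34945 matched). Each gene took its probe set with the highest mean, and was kept where that mean reached the median of all values (5.76), a rule that treats both arrays alike although 1 array can carry a gene past it. Lists were described by counts and medians. Named genes were all members, the furthest kept genes of each list in each direction (2 each for contractile, pericyte and stellate lists, otherwise 1), and 10 genes by name; Gcg, and Itgam, Mrc1 and Cx3cr1 as the macrophage markers below the floor, were named after their values were seen. Members and lists were chosen with earlier results of these data known. Computation used Python 3.11.15, numpy 2.4.6, pandas 2.3.3 and statsmodels 0.14.6 and was tested on simulated data. Alternatives were other probe set rules, floors, scalings (lowess span 0.3, second quantile normalization, centring) and a 1.5-fold rule.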

Additional observations from a re-analysis of the deposited data

How the results depend on the processing

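Of 238 main values recomputed under an alternative, 220 moved by less than 0.20, the median gap between probe sets of a gene, or for counts stayed within 1.5 times. So did 73 of 82 further values, which are the differences by member gene and the counts over all kept genes. Moves from both sets are given below. No difference of at least 2-fold changed sign, and no member probe set moved by 0.20 or more under any of the 3 scalings. For 2 of these scalings that was fixed beforehand. The sorted columns differed by at most 0.10, which bounds the second quantile normalization, and centring takes the same 0.03 from every difference. With probe sets averaged, the contractile members (Acta2 no longer kept) stood at 0.16 in place of 0.58, the pericyte minus contractile gap grew from 0.27 to 0.54, and the contractile apparatus list stood at 0.18; by gene, Des stood at -0.25, Rgs5 at 1.24 and Notch3 at 0.70. Without _s, _x and _a probe sets, the contractile members (Acta2 no longer kept) stood at 0.31, the pericyte members (Notch3 no longer kept) and Pdgfrb at 0.43, no member gene (0) was 2-fold higher, and the Schwann list kept 1 gene at 0.87. With no floor, the fibroblast-type members stood at 0.23, the contractile apparatus at 0.25 and T cell markers at 0.064. With the floor at the 75th percentile, the contractile members (Acta2 alone) stood at 0.81, the gap at 0.030, the fibroblast-type members (Vim alone) at 0.23, the contractile apparatus at 0.18, stellate and fibroblast markers at 0.89 and ductal markers at 0.49, with 0 member genes 2-fold higher. A 1.5-fold rule gave 4. Over all kept genes, 267 were 2-fold higher and 58 lower; these counts became 101 and 29 with the stricter floor and 849 and 355 at 1.5-fold, and 33 were lower with probe sets averaged. Fewer genes enter without those probe sets or with the stricter floor, and more with none. No replicate could be left out and no paired analysis was possible because each group has 1 array.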

Other observations

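Vimentin and desmin belong to the intermediate filaments, whose other genes differed in both directions. Of 12 genes of intermediate filaments and their partners 10 reached the floor, 6 higher and 4 lower, with a median of 0.14 that turned to -0.048 without _s, _x and _a probe sets. Ina, which encodes the neuronal filament protein internexin, was furthest higher: it read 9.69 on the transgenic and 8.93 on the control array, or 0.76 apart, with further probe sets between 0.60 and 0.74. Lmna, which encodes the nuclear lamins A and C, was furthest lower at -0.44, with the 4 further ones between -0.70 and -0.17.

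Cells of the exocrine pancreas that can accompany islets were read in the same samples. All 6 ductal markers at the floor were higher, with a median of 0.29, from 0.08 for Krt7, a duct keratin, to 1.11 for Prom1 (prominin-1). Of 11 acinar markers at the floor 8 were higher, with a median of 0.09, and Ctrc, which encodes chymotrypsin C, was furthest lower at -2.23 while Cela2a, an elastase gene, was furthest higher at 0.26. The median level of these 11 was 13.51 on the transgenic and 13.61 on the control array, so acinar RNA was present in both samples. Whether the signals of the members came from islet or from exocrine tissue was not tested.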
